A study of Drosophila melanogaster with 78 samples.

Results

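The comparison set whole Drosophila melanogaster embryos labelled URyf, on 5 arrays, against embryos labelled UR, on 4 arrays, all at stage 15 of embryogenesis. These 9 arrays were taken by their titles from a series of 78 arrays in 18 groups of axon guidance mutants, transgenics and wild type; the related groups URyf.mef (5 arrays), UR2 (4 arrays) and wild type (WT, 5 arrays) are set beside them where stated. The labels do not say what UR, yf or mef stand for, so no transgene, driver, allele or genetic background is assigned to either group. The titles call the arrays of a group biological replicates while the descriptions call them technical replicates, so the p-values may measure technical spread only. Each array is an Affymetrix fly genome array hybridised with biotin-labelled cRNA, and its values are intensities summarised per probe set, given here as log2. Because RNA came from whole embryos, fewer cells of a type and less RNA per cell cannot be told apart.

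The labels place these embryos in a study of axon guidance. At the ventral midline of the fly nerve cord, glial cells secrete Slit, a repellent that growth cones sense through receptors of the Roundabout (Robo) family. Commissureless keeps Robo off the growth cone surface while an axon crosses, and Netrins, read by Frazzled and Unc-5, attract or repel axons at the same place. Stage 15 is also when the axon scaffold, muscles, trachea and gut have formed and the epidermis makes its cuticle.

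The URyf arrays differed widely from each other. The SD of log2 intensities over the 13966 probe sets tested was 1.78, 1.63, 1.69, 1.73 and 1.73 on URyf replicates 1 to 5, against 1.77, 1.76, 1.74 and 1.76 on UR replicates 1 to 4. URyf replicate 1 lay above all UR arrays and the other 4 URyf arrays lay below them. The means were 1.71 ± 0.0573 in URyf (SD, n = 5) and 1.76 ± 0.0108 in UR (SD, n = 4), a difference of -0.0494 that did not pass an exact permutation test (two-sided p = 0.143; the smallest p that 5 against 4 arrays allow is 0.00794). Without URyf replicate 1, the only URyf array above UR, the difference was -0.0678 (exact permutation p = 0.0286). The 4 URyf arrays left all lay below UR, so this p is the smallest that 4 against 4 arrays allow. Leaving out the 1 contrary array fixed that outcome, so it is no separate evidence. The median SD between arrays of a group, per probe set, was 0.153 in URyf, rank 1 of 18 groups, against 0.0674 in UR, rank 17. Pairs of URyf arrays correlated at 0.9734 to 0.9962 across probe sets and pairs of UR arrays at 0.9974 to 0.9983; no arrays were identical.

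**Figure D1:**
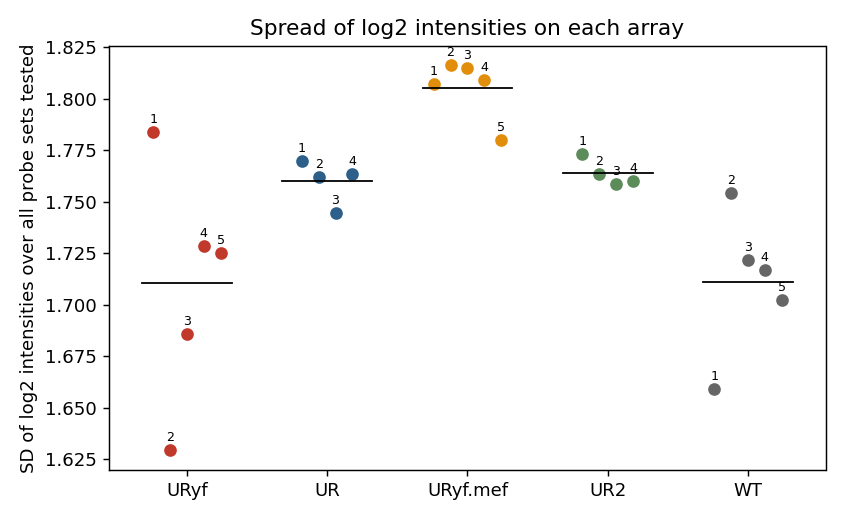
SD of log2 intensities on each array (vertical axis) for URyf, UR, URyf.mef, UR2 and WT; points are arrays with their replicate number and bars are group means. URyf spans 1.63 to 1.78, while UR spans 1.74 to 1.77.

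Control probe sets at the 3' and 5' ends of 3 transcripts, whose difference reflects how far labelling reached along the RNA, had lower means in URyf. The 3' minus 5' log2 difference of eIF-4a was 0.982 ± 0.208 in URyf and 1.25 ± 0.0813 in UR (SD, n = 5 and 4; exact permutation p = 0.0397, 0.119 after adjustment over 3 controls). That of actin was 0.737 ± 0.240 in URyf and 0.944 ± 0.0834 in UR (exact permutation p = 0.159), and that of GAPDH 1.62 ± 0.167 in URyf and 1.71 ± 0.0538 in UR (exact permutation p = 0.365). The part of the array spread and of these end differences in the results below was not tested. URyf replicates 1 and 2, whose SD lay over 0.05 from the median of their group, are called the arrays that stand apart, and counts are given with and without them. Markers of muscle, glia, neurons, trachea, hemocytes and epidermis lay at log2 intensities of 14.18 to 14.78 for Prm, 8.45 to 9.08 for repo, 7.32 to 8.45 for elav, 9.25 to 9.77 for btl, 11.15 to 11.88 for Pxn and 13.23 to 14.29 for Gasp over the 9 arrays. These values carry no detection calls, so whether the dimmer markers lay above background was not assessed.

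With all 78 arrays sharing 1 estimate of the spread (limma, Benjamini-Hochberg adjusted p under 0.05), 1894 probe sets (13.6%) were higher in URyf than in UR and 2030 (14.5%) were lower, 28.1% in all. Large changes were few: 4 of the higher and 21 of the lower probe sets changed at least 2-fold. When the spread was taken from the 9 arrays alone, 300 probe sets (2.15%) passed as higher and 919 (6.58%) as lower. URyf had the widest spread of the 18 groups, so the SE and p-values of the 78-array fit can understate its spread. The SE for CG11825 was 0.12 in the 78-array fit and 0.21 in the 9-array fit. For Uhg1 it went the other way, 0.14 and 0.08. Without the arrays that stand apart the 78-array fit called 1137 higher and 1613 lower. A fit without URyf replicate 2 called 1125 higher, one without UR replicate 1 called 1254 and one without UR replicate 2 called 1210. URyf and UR arrays did not overlap for 2141 probe sets (15.3%), of which 1908 were also called. Among 10844 genes, each read by the probe set of highest mean intensity, 1491 (13.7%) rose and 1527 (14.1%) fell; in the 9-array fit 228 (2.1%) rose and 658 (6.07%) fell. Genes that passed both fits without overlap between arrays numbered 214 higher (1.97%) and 602 lower (5.55%).

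Of the guidance genes, robo1, the founding Roundabout receptor, changed most. Its log2 intensity was 13.78, 13.65, 13.70, 13.75 and 13.70 on the URyf arrays, against 12.58, 12.70, 12.59 and 12.79 on the UR arrays. Every URyf array lay above every UR array, and both groups were tight. The change was 1.05 ± 0.07 (log2 ± SE of the fit, 2.07-fold; limma adjusted p = 5.87e-20, and 1.38e-05 in the 9-array fit), and 1.05 also without the arrays that stand apart. Robo1 intensity averaged 14.54 in URyf.mef, 11.49 in UR2 and 11.34 in WT, so UR itself lay above WT and URyf lay between UR and URyf.mef.

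The ligand and the regulators of Robo did not pass the test. The Slit gene sli read 9.65, 9.88, 10.03, 10.17 and 9.76 in URyf, against 9.81, 9.90, 9.94 and 10.05 in UR, overlapping throughout (change -0.03 ± 0.10, limma adjusted p = 0.861). The change was -0.04 ± 0.05 for comm (adjusted p = 0.594) and 0.06 ± 0.06 for its relative comm2 (adjusted p = 0.50). The signs for sli and comm changed between settings and carry no direction.

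NetB and fra passed as lower in the 78-array fit and missed the threshold in the 9-array fit. NetB, which encodes a secreted netrin, read 9.85, 10.66, 10.70, 10.77 and 10.93 in URyf, against 11.11, 11.07, 10.95 and 11.05 in UR. Its groups did not overlap, and URyf replicate 1 lay far below the other URyf arrays. The change was -0.46 ± 0.10 (limma adjusted p = 0.000547) but missed the threshold in the 9-array fit (adjusted p = 0.115). It was -0.28 without URyf replicate 1 and -0.24 without both arrays that stand apart (adjusted p = 0.0486). The netrin receptor gene fra read 10.80, 10.10, 10.23, 10.66 and 10.67 in URyf, against 11.04, 11.06, 10.95 and 10.78 in UR. URyf replicate 1 reached just above UR replicate 4, so the groups overlapped, and the change was -0.47 ± 0.13 (limma adjusted p = 0.00666; 0.0540 in the 9-array fit).

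Unc-5, the receptor tied to repulsion from netrin, gave no single answer. The probe set of highest mean changed by -0.11 ± 0.06 (limma adjusted p = 0.162), another by 0.06 (adjusted p = 0.532), and the dimmest by -0.83 ± 0.14 (adjusted p = 4.63e-06). The glypican gene dlp, a cell surface proteoglycan in the same list, fell by 0.55 on its brighter probe set (limma adjusted p = 1.21e-05), and its other probe set changed by -0.01 (adjusted p = 0.919). In all, 1 of the 9 genes in the list of the Slit, netrin and commissureless system rose and 3 fell, and in the 9-array fit 1 rose and 1 fell. The body colour gene y, a visible marker in fly genetics, was lower, with a change of -0.27 ± 0.06 (limma adjusted p = 0.000469; 0.0778 in the 9-array fit).

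**Figure D2:**
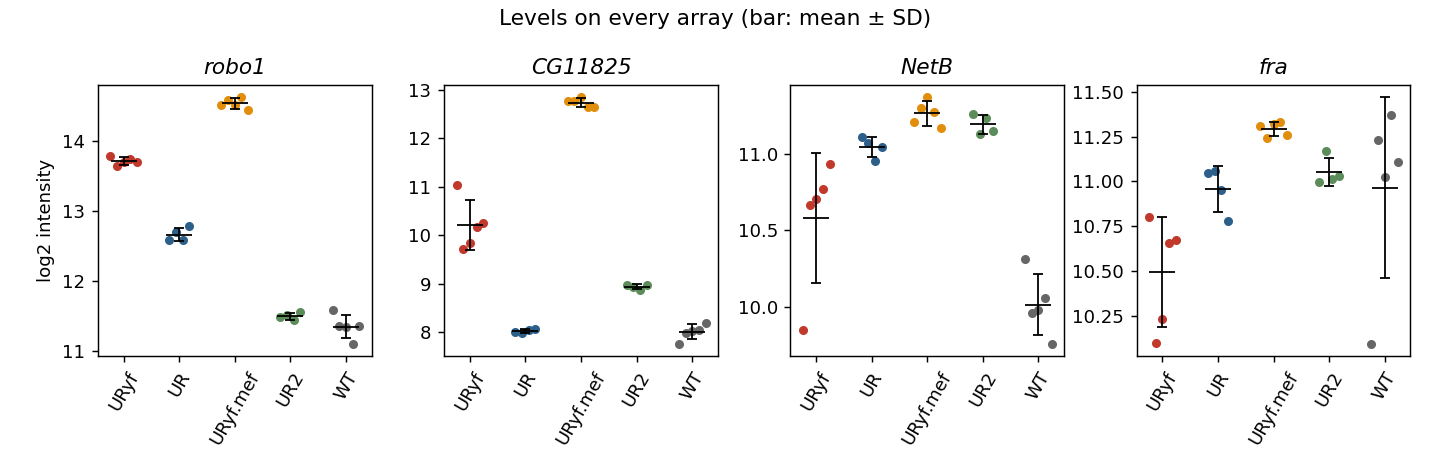
Log2 intensity (vertical axes) of robo1, CG11825, NetB and fra on every array of URyf, UR, URyf.mef, UR2 and WT; bars are mean ± SD. robo1 and CG11825 are above UR on all 5 URyf arrays, and URyf replicate 1 is the low array for NetB.

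The largest difference was in CG11825, a gene named only by its number. It read 11.04, 9.71, 9.84, 10.17 and 10.26 in URyf, against 7.999, 7.98, 8.035 and 8.07 in UR. All URyf arrays were far above UR, with replicate 1 the highest, and the UR mean lay 0.02 above that of WT (limma adjusted p = 0.917). The change was 2.18 ± 0.12 (4.54-fold; limma adjusted p = 2.06e-24, and 0.000251 in the 9-array fit), and 2.07 without the arrays that stand apart. CG11825 averaged 12.73 in URyf.mef and 8.93 in UR2, so the order of the 5 group means was the same as for robo1 except that UR2 lay above UR.

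Uhg1, a host gene of small nucleolar RNAs, was the next highest. Its log2 intensity was 8.47, 8.07, 8.31, 8.30 and 8.39 in URyf, against 7.097, 6.998, 7.072 and 6.968 in UR, with no overlap (1.28 ± 0.14, 2.42-fold, limma adjusted p = 1.59e-10). WT averaged 8.99 ± 0.678 (SD, n = 5), with replicate 1 at 7.82, below the URyf arrays, and replicates 2 to 5 between 9.08 and 9.58; UR2 was at 7.11 beside UR. Obp99a, of the odorant binding protein family, read 14.36, 13.69, 13.60, 13.88 and 13.96 in URyf, against 13.06, 12.82, 12.94 and 13.03 in UR (0.94 ± 0.08, adjusted p = 2.12e-14); the groups did not overlap.

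The other 8 genes of the highest 12 that passed both fits without overlap rose by 0.57 to 0.78. They included Gyg (0.72 ± 0.10), whose product glycogenin primes glycogen, Mgstl (0.65 ± 0.08), a microsomal glutathione transferase that rose on all 3 of its probe sets, and Cyp6a13 (0.64 ± 0.09), a cytochrome P450. CG10516 (0.78 ± 0.06), CG7860 (0.70 ± 0.06), CG6118 (0.64 ± 0.10), CG31075 (0.62 ± 0.07) and CG12483 (0.57 ± 0.12) are named by number. URyf replicate 1 was the highest URyf array for 8 of the 12 and replicate 2 for 3.

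The genes that fell furthest came from several tissues. Cpr67Fa2, a structural protein of the cuticle, read 10.21, 9.15, 9.86, 10.59 and 9.98 in URyf, against 11.51, 11.59, 11.38 and 11.25 in UR. All URyf arrays were lower, replicate 2 most of all (-1.47 ± 0.18, 2.78-fold; limma adjusted p = 1.35e-09, and 0.00269 in the 9-array fit). The Jonah protease gene Jon99Fi, expressed in the midgut, read 9.44, 9.82, 8.71, 8.85 and 8.52 in URyf, against 10.57, 10.34, 10.48 and 10.40 in UR (-1.38 ± 0.30, adjusted p = 0.000310). The order of the URyf arrays was different from that of Cpr67Fa2, with replicate 2 the highest here.

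bt encodes projectin, a giant protein of the muscle sarcomere. It read 11.79, 10.16, 10.69, 10.81 and 11.28 in URyf, against 12.13, 12.38, 11.86 and 11.86 in UR, and URyf replicate 1 came close to the UR arrays. The change was -1.11 ± 0.18 (limma adjusted p = 3.66e-06, and 0.0214 in the 9-array fit), and a dimmer probe set of bt changed by -0.51. Ten-m, a teneurin adhesion protein of neurons and muscle, read 10.32, 9.20, 9.74, 9.80 and 9.51 in URyf, against 10.95, 11.05, 10.60 and 10.43 in UR (-1.04 ± 0.16, adjusted p = 1.53e-06), with -0.29 on its other probe set. The Hox gene Antp read 9.72, 8.92, 9.07, 9.12 and 9.09 in URyf, against 10.23, 10.41, 10.24 and 9.94 in UR (-1.02 ± 0.14, adjusted p = 4.47e-08), yet its other probe set changed by 0.24 ± 0.07 the opposite way (adjusted p = 0.00646). The call for Antp therefore holds for 1 of its 2 probe sets.

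The remaining genes of the lowest 12 fell by 1.03 to 1.16 on the log2 scale. They were Nmda1 (-1.16 ± 0.18), which encodes an NMDA receptor associated protein and not a receptor subunit, lncRNA:CR42862 (-1.14 ± 0.18, and -1.07 on a second probe set), CG5973 and CG1441 (-1.14 ± 0.12 each), frm (-1.09 ± 0.13), Ogdh (-1.07 ± 0.15), an enzyme of the citric acid cycle, and ftz-f1 (-1.03 ± 0.14), a nuclear receptor of the ecdysone response. URyf replicate 2 was the lowest URyf array for 11 of the lowest 12. Passing both fits without overlap between arrays was how the 24 genes were chosen. All 24 also passed without the arrays that stand apart and after each array was scaled to the same SD. That choice made passing likely, so it is no separate evidence.

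**Figure D3:**
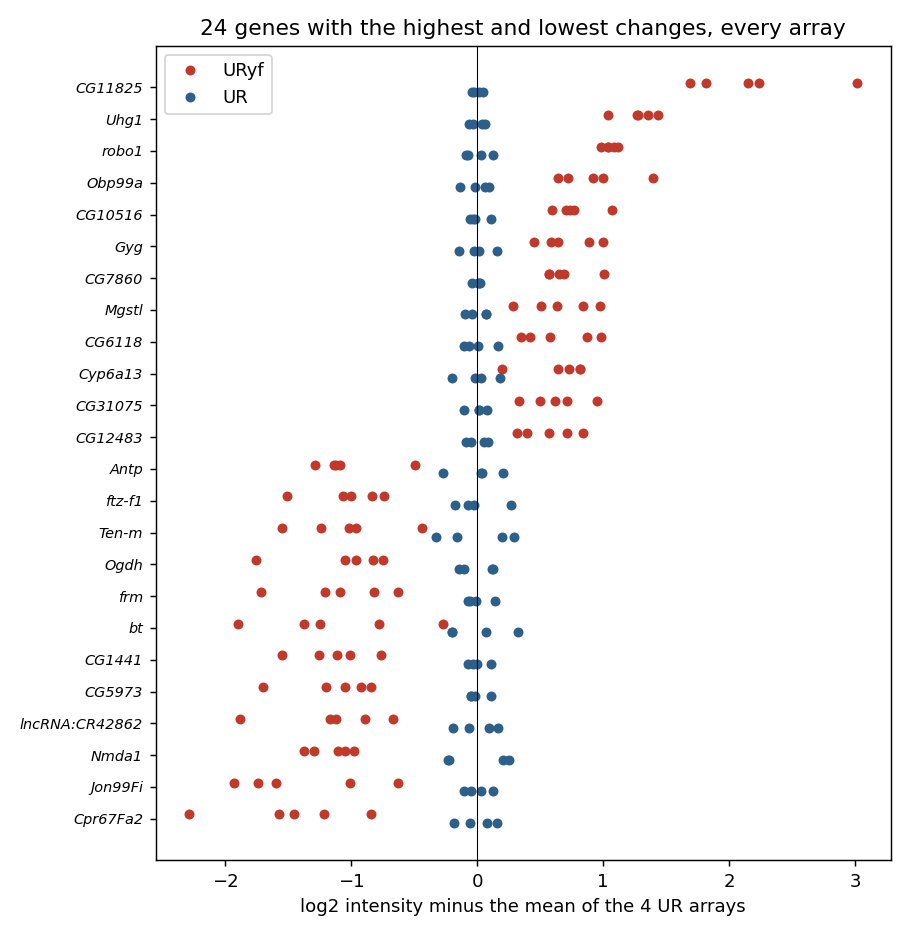
Log2 intensity minus the mean of the 4 UR arrays (horizontal axis) for the 12 genes with the highest and the 12 with the lowest changes; red points are the 5 URyf arrays and blue points the 4 UR arrays. The URyf arrays spread widely for most genes, and CG11825 has the highest of them.

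Setting both groups beside WT showed where each stood. Over all genes, 10% passed between URyf and WT (4.74% higher and 5.27% lower) and 33.5% between UR and WT (13.7% higher and 19.8% lower); these 2 comparisons share the WT arrays. All 12 of the lowest genes were higher in UR than in WT, while in URyf 2 of them were lower than in WT and 3 higher. WT arrays were themselves spread: their median SD between arrays per probe set was 0.1345, rank 2 of 18 groups. Array SD averaged 1.71 in WT, as in URyf, against 1.76 in UR, and was 1.66 on WT replicate 1. For Nmda1 that array read 8.23, against 9.56 to 9.87 on WT replicates 2 to 5 and 9.61 to 10.09 in UR. For Jon99Fi, 1 of the lowest 12, WT replicate 1 went the other way. It read 10.93, above the 10.34 to 10.57 of the UR arrays, against 7.17 to 7.47 on WT replicates 2 to 5. For Cpr67Fa2 WT read 7.68 to 9.29 and UR 11.25 to 11.59. The part of WT replicate 1 in these counts was not tested. For Cpr67Fa2 the mean log2 intensity was 9.96 in URyf, 11.43 in UR and 8.81 in WT, and for ftz-f1 it was 11.34 in URyf, 12.37 in UR and 11.15 in WT. For ftz-f1 WT replicate 1 read 10.175 and WT replicates 2 to 5 read 11.32 to 11.44. Its change from WT to URyf did not pass (0.19, limma adjusted p = 0.455). Of the highest 12, 8 were higher in URyf than in WT, and in UR 7 were lower than in WT and 3 higher. Since URyf minus UR and UR minus WT share the UR arrays, these values stand side by side and are no separate evidence. Between URyf.mef and URyf 65.9% of genes passed; 11 of the lowest 12 were higher in URyf.mef, but that comparison uses the URyf arrays on which these genes were chosen as low, so nothing is read from the count.

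The change was then read over 30 lists of genes, 548 of which were measured. Against a share of 14.1% of all genes lower and 13.7% higher, 22 lists had a larger share lower and 8 a larger share higher, and the median change over all genes was 0.03. List medians and counts are given beside those of all genes and were not tested as sets. The share of a list's members among the 30% of genes with the longest span is given beside some counts.

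The list of hemocytes, the blood cells, and of basement membrane components had the largest share lower: 15 of 24 fell, 2 rose and the median was -0.27. In the 9-array fit 7 fell, and with the array SD as a covariate 8 fell. LanA, a laminin subunit, read 12.76, 11.54, 11.99, 12.56 and 12.51 in URyf, against 12.99, 13.20, 13.07 and 12.87 in UR (-0.76 ± 0.16, limma adjusted p = 0.000150). The transcription factor srp, needed for blood cells and fat body, changed by -0.82 ± 0.13, the receptor gene Pvr of hemocyte migration by -0.63 ± 0.11, and the collagen XV/XVIII gene Mp by -0.70 ± 0.10, although 2 other probe sets of Mp did not pass. The 2 that rose, NimC1 (0.34 ± 0.08) and eater (0.23 ± 0.07), encode phagocytic receptors of hemocytes, and the hemocyte marker Hml changed by 0.00 ± 0.07 (adjusted p = 0.987); these 3 were named after their values were seen. In span, 70.8% of the list was among the longest 30% of genes.

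Neural genes were also lower more often than higher. Of 23 axonal and neural adhesion genes 12 fell and 1 rose (median -0.29, 6 lower in the 9-array fit). CadN, an N-cadherin that holds axons together, read 9.95, 10.63, 10.67, 10.81 and 10.97 in URyf, against 11.44, 11.35, 11.22 and 11.44 in UR (-0.76 ± 0.09, limma adjusted p = 3.58e-09). Tl, the Toll receptor, changed by -0.96 ± 0.15 and the leucine-rich repeat gene kek2 by -0.70 ± 0.11. Among other axon guidance ligands and receptors 7 of 19 fell and none rose (6 in the 9-array fit), with otk (-0.67 ± 0.12), the semaphorins Sema1a (-0.61 ± 0.11) and Sema5c (-0.51 ± 0.12) and the semaphorin receptor PlexB (-0.42 ± 0.12; limma adjusted p = 0.0515 without UR replicate 2). In growth cone signalling 6 of 17 fell, among them the kinase gene Pak (-0.75 ± 0.12) and Moe (-0.54 ± 0.09), which links actin to the membrane. Of these lists 91.3%, 94.7% and 82.4% of members were among the longest 30% of genes.

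Markers of cell types in the nervous system were lower more often than higher. Glial genes fell in 7 of 18 (2 in the 9-array fit), with the sodium pump subunit gene nrv2 at -0.67 ± 0.16 and the receptor gene htl at -0.50 ± 0.10, and none rose. Of 19 genes of differentiated neurons 7 fell and 1 rose (3 lower in the 9-array fit). The lower ones included unc-13 (-0.55 ± 0.12), which primes synaptic vesicles, and the potassium channel gene slo (-0.41 ± 0.08). In span, 94.7% of this list was among the longest 30% of genes. Both unc-13 and PlexB, named above, lie on chromosome 4, whose genes are described further below. Neural precursor genes fell in 4 of 23 (1 in the 9-array fit), a share near the background, with grh at -0.59 ± 0.09. Of 12 midline genes 5 fell and 1 rose, but 2 fell in the 9-array fit, 3 after scaling and 1 with the array SD as a covariate; Egfr changed by -0.47 ± 0.10 on its brighter probe set and by -0.10 (adjusted p = 0.237) on the other.

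Cuticle genes had the largest share lower of the 30 lists in the 9-array fit. Of 25 cuticle protein genes 12 fell and none rose, with a median of -0.25; 10 fell in the 9-array fit, and 12 fell after scaling. Only 8% of these genes were among the longest 30%. Cpr49Ae read 8.48, 8.81, 8.48, 8.93 and 8.84 in URyf, against 9.59, 9.79, 9.69 and 9.68 in UR (-0.98 ± 0.08, limma adjusted p = 3.17e-15), and the URyf arrays lay together and apart from UR. Lcp65Af (-0.88 ± 0.10) and Cpr47Eg (-0.61 ± 0.14) fell too. Chitin and epidermal differentiation genes fell in 7 of 25, among them the chitin-binding gene Gasp (-0.53 ± 0.11) and the deacetylase gene Cda5 (-0.36 ± 0.07). Cht6, a chitinase gene, changed by -0.94 ± 0.11 on its brightest probe set, but a dimmer one was higher by 0.23 ± 0.06 (adjusted p = 0.00229).

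Muscle, fat and gut genes also moved down more often than up. In muscle 7 of 21 fell and none rose (4 in the 9-array fit), with Zasp66 of the sarcomere Z-disc at -0.65 ± 0.06 and the integrin gene if at -0.58 ± 0.10. Of 21 genes of fat body, sugar and lipid stores 8 fell and 2 rose (7 lower in the 9-array fit). FASN1, a fatty acid synthase, read 8.60, 8.57, 8.62, 8.57 and 8.81 in URyf, against 9.60, 9.63, 9.38 and 9.63 in UR (-0.93 ± 0.08, limma adjusted p = 2.39e-14), a tight separation. UGP (-0.57 ± 0.08) and Treh (-0.52 ± 0.07), which make and use sugar stores, and Pepck1 (-0.51 ± 0.08), of gluconeogenesis, were lower. The 2 that rose were Tps1 (0.244 ± 0.052) and AGBE (0.195 ± 0.063), and neither passed in the 9-array fit. Gyg, which is not in this list, rose by 0.72, so genes of sugar stores went both ways. Midgut digestion genes fell in 5 of 29 (17.2%, near the 14.1% of all genes), with the mucin gene Muc55B at -0.93 ± 0.11. The 1 that rose, Muc68D (0.32 ± 0.07), also passed in the 9-array fit without overlap between arrays. In the 9-array fit 6 midgut genes fell (20.7%, against 6.07% of all genes), and 15 fell with the array SD as a covariate. In the tracheal list 5 of 12 fell and btl, the tracheal FGF receptor, rose by 0.31 ± 0.09; rib and pyd fell too, but each also had probe sets that did not pass.

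Lists of hormone, patterning, immune and stress genes held calls in both directions. Among 22 ecdysone genes 4 fell and 3 rose, with Kr-h1 at -0.64 ± 0.10 beside ftz-f1 above. Of 26 early patterning genes 5 fell and 1 rose. Of 17 immune genes 3 fell and 3 rose, including the serpin gene Spn43Aa (0.56 ± 0.10) and the NF-kappaB factor dl (-0.59 ± 0.09). Of 10 heat shock and chaperone genes 3 fell and 1 rose, led by the mitochondrial chaperone gene Hsc70-5 (-0.80 ± 0.15); Hsp26 (0.46 ± 0.15) read 11.81 on URyf replicate 2 and 9.89 to 10.28 on the other URyf arrays, and 9.90 to 10.05 in UR, and missed the threshold in the 9-array fit (adjusted p = 0.353); without URyf replicate 2 its change was 0.11 (adjusted p = 0.352).

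Among the genes called with all arrays in the fit, those of the mitotic cycle were mostly lower and those of DNA replication mostly higher. The difference was not tested. Of 18 mitotic genes 6 fell and 1 rose, led by the mitotic cyclin gene CycB3 (-0.56 ± 0.10). In the 9-array fit only 1 of the 18, CycB3, fell (5.56%, against 6.07% of all genes). CycB3 read 11.10 on URyf replicate 1, within the 10.93 to 11.20 of the UR arrays, so its groups overlapped. Of 20 replication genes 5 rose and 2 fell, and the risers included the helicase subunit genes Mcm3 (0.26 ± 0.07) and dpa (0.22 ± 0.05) and the origin gene Orc1 (0.23 ± 0.07). In the maternal and germline list 5 of 26 rose and none fell. The risers included pgc (0.42 ± 0.10), osk (0.27 ± 0.08) and aub (0.23 ± 0.07). The call for aub was lost without URyf replicate 2 (limma adjusted p = 0.0571) and without UR replicate 2 (limma adjusted p = 0.0554). Of 11 salivary gland genes 3 rose and 1, pip, fell (-0.20 ± 0.08). None of the replication, maternal or salivary genes passed in the 9-array fit. With the array SD as a covariate 1 maternal and germline gene rose and 2 fell, and 1 salivary gene rose.

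Housekeeping lists depended on the scaling. Over all 10844 genes 1491 rose as deposited, 1990 after the arrays were scaled to equal SD and 1354 with the array SD as a covariate. Of 26 proteasome genes 3 rose as deposited, 15 after scaling and 21 with the covariate. For 14 cytosolic ribosomal proteins 1 fell as deposited and 11 rose after scaling. The median level of this list was 15.45, the highest of the 30 lists, and whether its probe sets were saturated was not assessed. For 24 oxidative phosphorylation genes 1 fell as deposited and 7 rose after scaling. Of 17 secretory pathway genes 3 rose as deposited and 8 after scaling. No direction is given for these lists. Among the detoxification genes 3 of 19 rose and 3 fell, with Cyp4e2 at -0.53 ± 0.07.

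**Figure D4:**
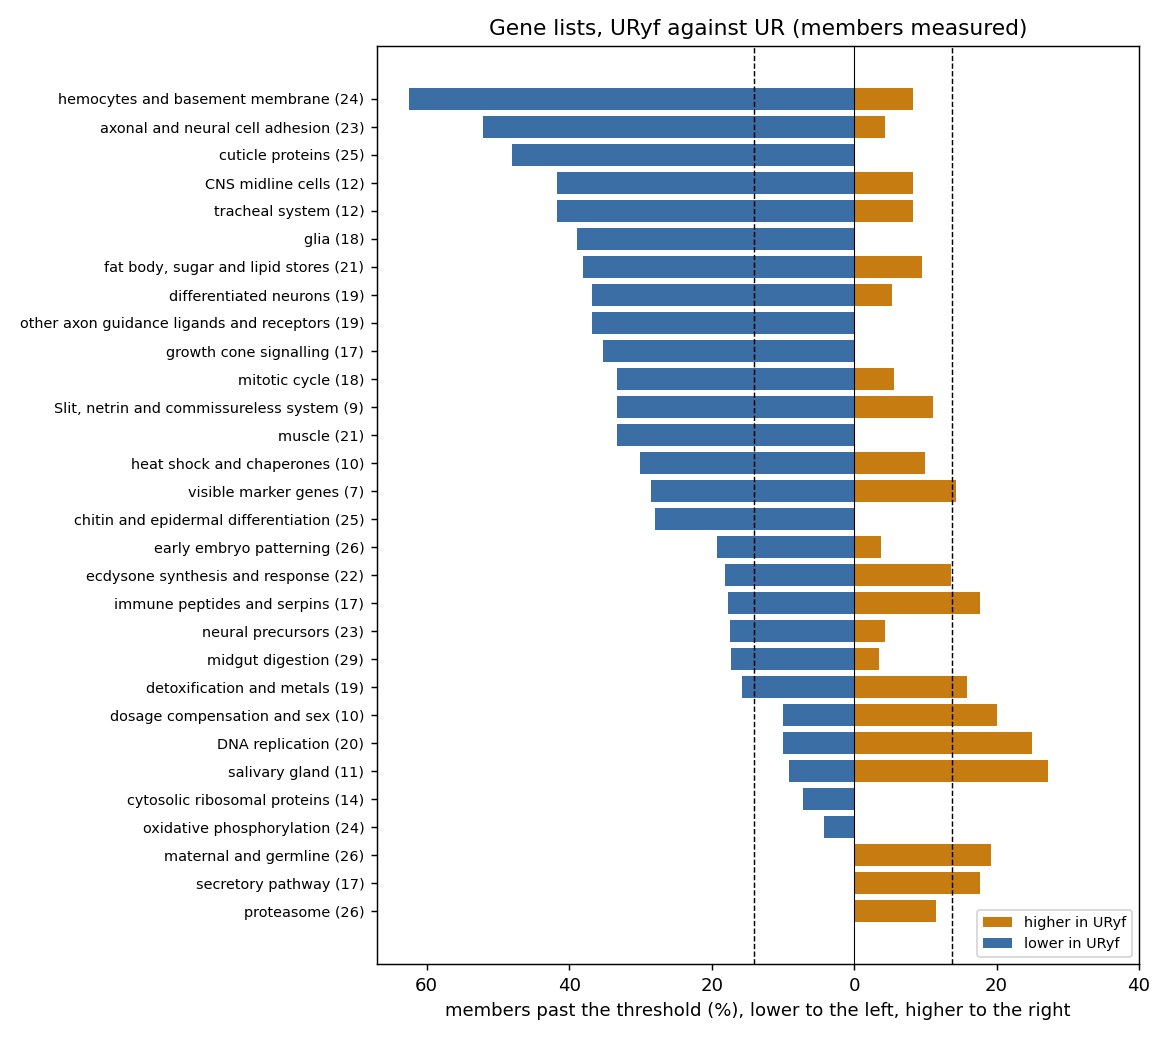
Share of measured members past the threshold in each of the 30 lists, lower in URyf to the left and higher to the right (horizontal axis, percent); numbers in brackets are members measured and dashed lines are the shares over all genes, 14.1% lower and 13.7% higher. Hemocyte and basement membrane genes (62.5% lower), axonal adhesion genes (52.2%) and cuticle genes (48%) stand at the top.

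Gene span, from start to end in the RefSeq annotation, ran with the direction of change over the 10799 genes that have one. The genes were put in 10 equal bins from shortest to longest span. Between 17.1% and 23.7% of genes rose in each of the shortest 5 bins, against 3.52% in the longest bin. Between 5% and 7.59% fell in those short bins, against 29.4% in the longest. After scaling the arrays to equal SD, 25.2% of the longest bin fell. Against WT, the median change in URyf was -0.003 in the shortest bin and -0.01 in the longest. In UR it was -0.08 in the shortest and 0.04 in the longest, so the run with span was seen in UR against WT more than in URyf against WT. These comparisons share arrays, and the cause was not tested. Intensity ran with the calls as well, in 5 equal bins of probe sets by mean level: in the dimmest bin 24.5% were higher and 5.55% lower, and in the brightest 7.02% were higher and 23.4% lower. Scaling changed the order of the shares higher, to 15% in the dimmest and 22.3% in the brightest bin. The part of gene span in the counts of the neural and matrix lists was not tested.

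**Figure D5:**
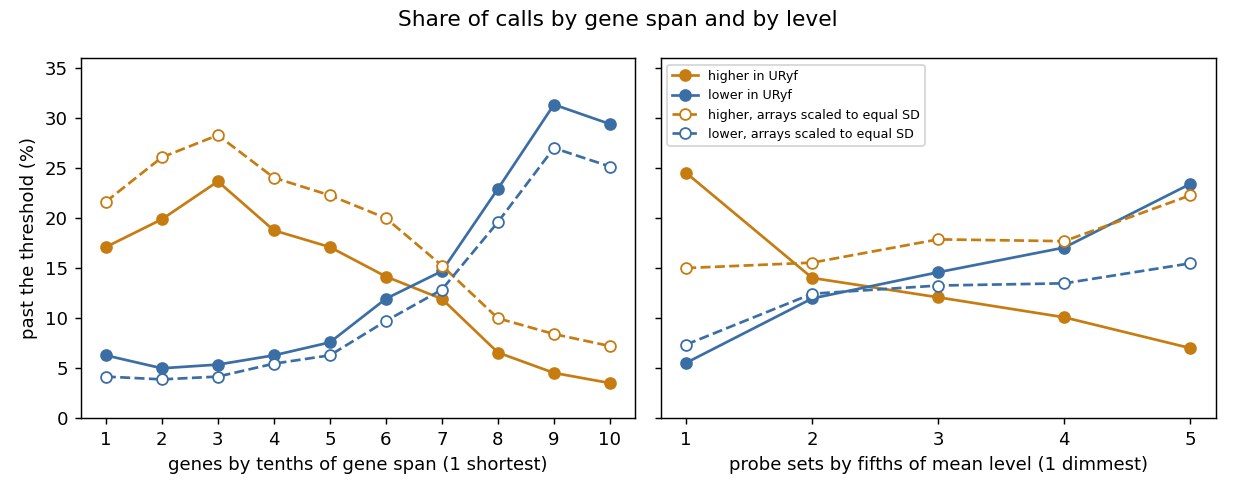
Share of genes or probe sets past the threshold (vertical axes, percent) in 10 bins of gene span from shortest to longest (left) and in 5 bins of mean log2 intensity from dimmest to brightest (right), higher and lower in URyf; dashed lines are arrays scaled to equal SD. The share lower is 29.4% in the bin of longest genes, and 25.2% after scaling.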

How the data were processed

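The authors deposited one intensity per probe set and array, made with RMA per the submitters' processing notes, version not given in the sources used here. These deposited intensities are on a linear scale (medians of 831.7 to 853.5 over the 9 arrays), so log2 was taken. The table held 14010 probe sets; 44 controls were left out of the tests. Of the others, 12443 had 1 gene name, and 12394 names were brought to RefSeq (Release 6 plus ISO1 MT); 327 probe sets with several names and 1196 with none were named for no gene.

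In limma 3.58.1 (R 4.3.3), each of the 18 groups had its own mean over the 78 arrays (60 residual degrees of freedom; 7 in the 9-array fit), two-sided, with Benjamini-Hochberg adjustment over 13966 probe sets and a threshold of 0.05; the code was tested on simulated data. Array measures were compared with exact permutation tests. Genes were read by the probe set of highest mean. Named are the guidance genes and markers, the 12 highest and 12 lowest changes past both fits without overlap, and up to 4 genes per list. The comparison, lists and naming rule were chosen with earlier results of these data known. Same-numbered arrays of URyf and UR were checked for pairing: their deviations correlated at 0.287, -0.189, 0.138 and -0.0394. These values had no common sign, so no pairing was used in the main fit. So few values cannot exclude pairing. No scan date or batch was used here. The number of arrays limits the precision. Figures: matplotlib 3.10.9, Python 3.11.15.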

Additional observations from a re-analysis of the deposited data

Results flagged for a closer look

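An array was marked where its gap to the nearest of its group exceeded 0.829 (4 arrays) or 0.71 (5 arrays) of the group's range. Of 264 groups of values 18 were marked, while chance marks about 1 in 20. URyf replicate 1 stood out at log2 intensities of 12.1 for CG7860 (others 11.66 to 11.79), 15.13 for Sec61alpha (14.88 to 14.89), 8.15 for pim (7.09 to 7.37), 9.85 for NetB (10.66 to 10.93) and 9.72 for Antp (8.92 to 9.12). URyf replicate 2 stood out at 11.81 for Hsp26 (9.89 to 10.28), 12.57 for pyd (12.38 to 12.44), 10.75 for sn (10.61 to 10.62), 10.72 for alphaTry (10.06 to 10.23) and 6.39 for otk (7.03 to 7.27). URyf replicate 5 stood out at 8.81 for FASN1 (8.57 to 8.62).

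Among UR arrays, replicate 3 stood out at 14.68 for Sec61alpha (others 14.80 to 14.81), 10.93 for CycB3 (11.16 to 11.20), 9.49 for nrv2 (9.05 to 9.12), 13.64 for Muc55B (13.74 to 13.75) and 9.38 for FASN1 (9.60 to 9.63). UR replicate 1 was at 8.92 for slo (9.11 to 9.14), and UR replicate 4 had a GAPDH 3' minus 5' difference of 1.63 (1.73 to 1.74).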

How the results depend on the processing

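The number of calls depended on the setting, and the number of arrays limits what can be told. The 1894 higher probe sets became 300 in the 9-array fit, 900 with array weights per group, 827 without dim probe sets and 1137 without the arrays that stand apart, and ranged from 1125 (without URyf replicate 2) to 2508 when each array was left out; it was 1210 without UR replicate 2 and 1254 without UR replicate 1. In 2 settings chosen after seeing the data, it was 507 with the 9 arrays alone scaled to equal SD and 1045 with the compared arrays alone less those that stand apart. The 2030 lower probe sets became 919 in the 9-array fit and 838 in the scaled 9-array fit, and ranged from 1529 to 2331 when each array was left out. The share of calls that were higher, 48.3%, was 58.8% after scaling, 24.6% in the 9-array fit, 37.1% with weights per group, 35% without dim probe sets, 37.7% in the scaled 9-array fit and 37.8% with the compared arrays less those that stand apart. The SD difference was -0.0620 as an interquartile range (exact permutation p = 0.0397), and ranged from -0.0678 (without URyf replicate 1, exact permutation p = 0.0286) to -0.0291 when each array was left out. The replicate block gave 1771 higher and 1927 lower and lost 3 of 123 named calls; the 9-array fit lost 46, the SD covariate 31, the weights per group 16 and leaving out the arrays that stand apart 13, and none reversed.

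The robo1 change stayed between 1.01 and 1.19 and past the threshold under every setting run, and ranged from 1.02 to 1.09 when each array was left out. The change of sli turned positive at 0.00028 with weights per array, 0.0614 without the arrays that stand apart in either fit, 0.0336 without URyf replicate 1, 0.00798 without URyf replicate 5 and 0.0147 without UR replicate 4, and ranged from -0.0961 to 0.0336 when each array was left out. That of comm turned positive at 0.0391 after quantile normalization, 0.0387 after scaling in either fit and 0.00105 without URyf replicate 3, and ranged from -0.0648 to 0.00105 when each array was left out. The cause was not tested.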

Other observations

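Families of genes were counted by symbol after the data were seen, so the counts are a description. Over all genes 14.1% fell and 13.7% rose, and 6.07% and 2.1% in the 9-array fit. Of 58 Cpr cuticle genes 21 fell and 1 rose (12 lower and none higher in the 9-array fit), and of 20 Tweedle cuticle genes 7 fell and none rose (5 in the 9-array fit). Odorant binding protein genes went the other way, with 11 of 35 higher and 4 lower, though in the 9-array fit 2 were higher and 3 lower. Of 81 cytochrome P450 genes 14 rose and 9 fell, and 7 rose and 7 fell in the 9-array fit. Of 29 V-ATPase genes 8 fell and 3 rose, but 2 fell and 1 rose in the 9-array fit and 2 fell and 5 rose with the array SD as a covariate, so no direction is given.

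The small chromosome 4 stood apart from the other arms, also noticed after the data were seen. Of its 57 measured genes 34 (59.65%) fell and 3 rose, with a median of -0.32, against medians of 0.02 to 0.04 on the other arms and 14.1% of all genes lower. Against WT, the median of these genes was -0.07 in URyf and 0.26 in UR. In the 9-array fit 24 fell and none rose, and with the array SD as a covariate 28 fell and the median was -0.18. Of these genes 47 were among the longest 30%, and of the genes in that length class on other arms 27.5% fell; the part of gene span was not tested. The 34 included bt (-1.11), CG33521 (-1.01), yellow-h (-0.94), gw (-0.77) and Pur-alpha (-0.76). The median deviation of chromosome 4 genes from their mean over all arrays was -0.10, -0.52, -0.41, -0.25 and -0.27 on URyf replicates 1 to 5, against 0.06, 0.11, -0.01 and 0.03 on UR replicates 1 to 4, with no overlap. Low values were not particular to URyf. Group means of the deviation were -0.31 in URyf, -0.27 in the group UC, -0.22 in WT and -0.21 in the group robo12. The WT mean leaned on 1 array: WT replicates 1 to 5 were at -0.557, -0.051, -0.126, -0.133 and -0.208. The remaining groups, UR among them, lay between -0.08 and 0.19. Over the 78 arrays this deviation ran with the array SD at Pearson r = 0.829 and Spearman rho = 0.725 (0.80 after group means were removed); the points share arrays and normalization, and the part of the array spread in the chromosome 4 values was not tested.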
